A study of Homo sapiens with 17 samples.

Results

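The comparison described here sets 2 doses of the compound VT107 against each other in SNU-761 cells, a long-established line grown from a human liver carcinoma and wild type in genotype here. It covers 4 of the 17 libraries of the series: 2 libraries from cells given 2.15 µM and 2 from cells given 0.1 µM, chosen by the treatment in their labels. Groups were DMSO, the vehicle (2 libraries, used for reference), VT107 at 0.1 µM and VT107 at 2.15 µM, all after 4 h of treatment. The assay was SLAM-seq, which reads out RNA made during a labelling period: cells incorporate thiouridine into nascent RNA and iodoacetamide makes each incorporated base read as C in place of T. The values are counts per gene of reads assigned to new transcripts. All groups are 1 cell line, and nothing in the labels says that the 2 libraries of a group came from separate cultures, so the spread between them may be technical.

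TEAD proteins are the DNA-binding end of the Hippo pathway. They bind DNA together with the coactivators YAP and TAZ, which enter the nucleus when the Hippo kinases are inactive, and they drive genes of growth, cell shape and adhesion, with CCN1 and CCN2 among the best known targets. TEADs carry a lipid, palmitate, in a central pocket. VT107 belongs to a group of compounds known to block that modification, and it acts on all TEAD family members. In liver, loss of Hippo control is known to expand the organ and to promote tumours. With 2 doses, the question is which genes responded further at the higher one and which had already reached their limit at 0.1 µM. The table gives Ensembl IDs without gene names, and 0 of its IDs could be matched to a symbol in the gene table used, so genes are given by ID, no more than 2 per direction and contrast, and the functions of single genes are not described. For the same reason the liver identity of the cells was not checked against marker genes.

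Total counts were 1778876 and 1247990 at 2.15 µM, 846103 and 789214 at 0.1 µM, and 1001568 and 1103024 in DMSO, so that the mean total at the higher dose was 1.85 times that at the lower one. These are counts given to new transcripts, and the total reads sequenced were not used here. Of 19867 genes, 10083 had enough counts to be tested. Over the 5042 of these genes with the highest levels, the median absolute log2 difference was 0.247 between the replicates at 2.15 µM, 0.344 between those at 0.1 µM and 0.406 between those in DMSO. Between a library at 2.15 µM and one at 0.1 µM it was 0.316 to 0.361 in the 4 pairs, and between a VT107 and a DMSO library it was 0.369 to 0.484. The doses therefore differed from each other about as much as the 2 libraries at 0.1 µM did. In all 4 pairs they differed more than the replicates at 2.15 µM and less than those in DMSO. Replicate counts differed by more than counting noise in each group, with chi-square per degree of freedom of 5.16 at 2.15 µM, 5.94 at 0.1 µM and 8.76 in DMSO, so none of the 6 was treated as a repeat of another.

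No gene differed between 2.15 and 0.1 µM at an adjusted p under 0.05 by edgeR's quasi-likelihood test (0 of 10083, or 0%, smallest adjusted p 0.886). Without adjustment, 256 genes (2.54%) were higher at 2.15 µM and 278 (2.76%) lower at a p under 0.05, against 504 in all that unchanged genes would give. The libraries of the doses did not overlap in 2024 genes that were higher (20.1%) and 1916 that were lower (19.0%). DESeq2 called 7 genes, 3 higher and 4 lower, and edgeR without a filter on low counts called 4. Total count scaling turned the balance of the unadjusted counts, with 302 higher and 222 lower. Single libraries also moved these counts. They were 104 higher and 129 lower without 2.15 µM replicate 1, 102 and 126 without 2.15 µM replicate 2, 340 and 182 without 0.1 µM replicate 1, and 520 and 293 without 0.1 µM replicate 2. Without DMSO replicate 1 or 2, which enter the filter, the scaling and the estimate of the spread but not the dose difference itself, they were 387 and 394, and 375 and 384.

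The lower value with the smallest p was that of ENSG00000137331, the gene with the most counts in these libraries. It had 28708 and 31549 CPM in DMSO (counts scaled by edgeR's TMM to 1e6 per library), 16834 and 14549 CPM at 0.1 µM, and 9125 and 10378 CPM at 2.15 µM. The 3 groups did not overlap, and each stood below the one before it. Its log2 fold change of 2.15 over 0.1 µM was -0.69 (SE 0.11, 95% interval -0.94 to -0.44, adjusted p = 0.886 by edgeR). DESeq2 and the fit without a filter put this gene past the threshold (adjusted p as low as 0.0224). ENSG00000180329 had 48.3 and 46.4 CPM in DMSO, 86.0 and 102 CPM at 0.1 µM, and 28.1 and 29.3 CPM at 2.15 µM, so that its 0.1 µM libraries stood above both other groups. Its log2 fold change between the doses was -1.71 (SE 0.34, adjusted p = 0.886 by edgeR).

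Both genes with the smallest p among those higher at 2.15 µM were low at 0.1 µM and near or above their DMSO level at 2.15 µM. ENSG00000164172 had 32.2 and 36.7 CPM in DMSO, 1.18 and 0 CPM at 0.1 µM, and 34.1 and 29.3 CPM at 2.15 µM. It rested on 101 counts at 2.15 µM against 1 count at 0.1 µM, a ratio of 52.8 after scaling (95% counting interval 9.27 to 2107, adjusted p = 0.886 by edgeR). ENSG00000116260 had 70.8 and 60.9 CPM in DMSO, 25.9 and 12.6 CPM at 0.1 µM, and 82.2 and 107 CPM at 2.15 µM, with a log2 fold change between the doses of 2.28 (SE 0.43, adjusted p = 0.886 by edgeR). The first gene passed the threshold without the filter (adjusted p = 0.0145 by edgeR) and the second with DESeq2 (adjusted p = 0.049). In the other alternatives their adjusted p ran from 0.179 to 1 and from 0.0719 to 1. Leaving out 1 library put the log2 fold change between 4.64 and 8.24 for the first, where a fitted value against 0 or 1 counts is no measured size, and between 1.87 and 2.92 for the second. In both genes the 0.1 µM libraries were the ones apart from the other 4.

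**Figure D1:**
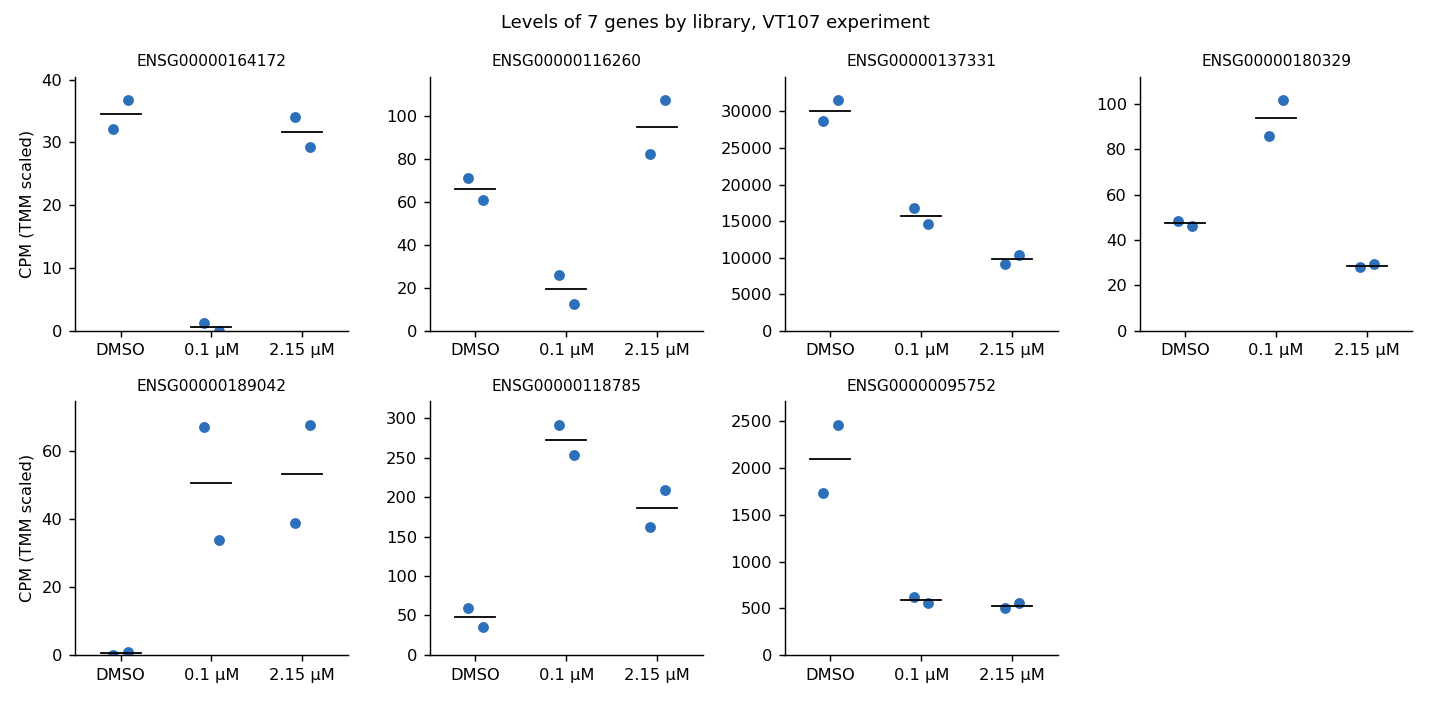
Level of 7 genes in each of the 6 labelled libraries, in CPM after TMM scaling, with DMSO, 0.1 µM and 2.15 µM from left to right; points are libraries and lines are means of 2. The upper row holds the genes with the smallest p between the doses and the lower row those named for both doses against DMSO; in ENSG00000137331 each dose is below the one before it, and in ENSG00000164172 the 0.1 µM libraries alone are near 0.

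**Figure D2:**
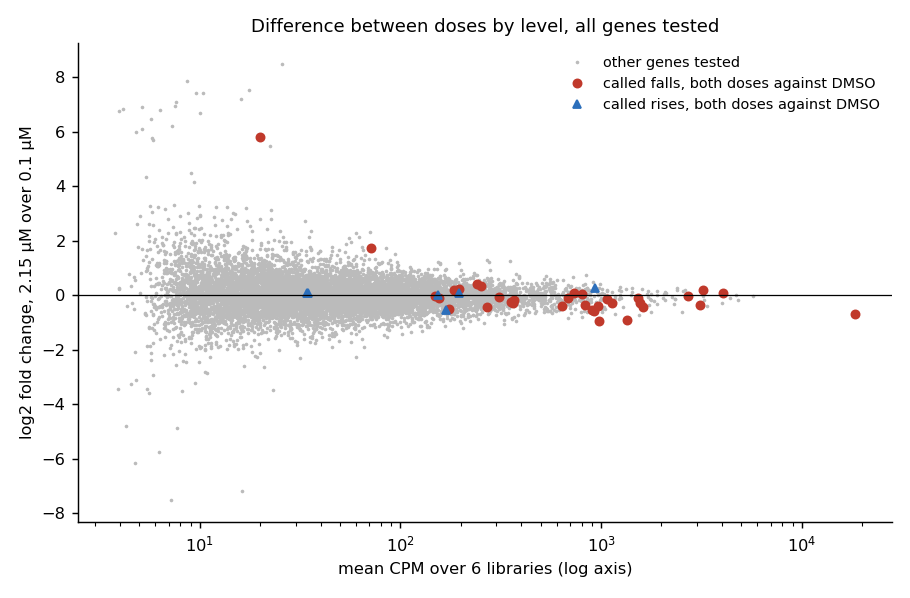
Log2 fold change of 2.15 over 0.1 µM against mean CPM over 6 libraries (log axis) for the 10083 genes tested, with the 34 called falls (red circles) and 6 called rises (blue triangles) of both doses against DMSO. The spread between the doses narrows with level, and 24 of the 34 falls lie below 0; the 1 fall near 6 had 0 counts at 0.1 µM and its fitted value is not a measured size.

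How far a missing call can be read depends on the interval of each difference. The 95% interval of the difference between doses was 3.75 log2 units wide at the median in the 2521 genes with the lowest levels, and 2.32, 1.80 and 1.31 in the next 3 bins of nearly equal size. It lay inside a 2-fold change in either direction (log2 -1 to 1) for 0, 69, 522 and 1529 genes of these bins, which came to 2120 of 10083 genes (21.0%). In the other genes the interval reached or lay beyond a 2-fold difference, so that a difference of that size between the doses could not be set aside. Unadjusted p-values under 0.05 fell on 51, 67, 70 and 68 higher genes and on 27, 50, 71 and 130 lower genes from the lowest to the highest bin.

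Responding genes were picked by a contrast of the mean of both doses with DMSO. It gives the doses equal weight and does not use the difference between them. Both contrasts share 1 estimate of spread per gene, however, so the pick is not independent of the p between the doses. Genes picked with a low estimate of spread also tend to have a smaller p between the doses. Against DMSO, 34 genes fell (0.337% of 10083) and 6 rose (0.0595%) at an adjusted p under 0.05 by edgeR, where 2.15 µM alone gave 11 calls (0.109%), all of them lower, and 0.1 µM alone gave 0 (1219 genes, or 12.1%, at an unadjusted p under 0.05, and 183 calls by DESeq2). Most of the falls were in genes with high levels, with a median at percentile 98.5 of the genes tested, and their log2 fold changes had a median of -1.34. In these bulk libraries a change in part of the cells and a smaller change in every cell cannot be told apart. All of these responses rest on the same 2 DMSO libraries, and the count of calls was lower whenever a library was left out. The count was 7 and 5 without 2.15 µM replicate 1 or 2, 6 and 1 without 0.1 µM replicate 1 or 2, and 3 and 35 without DMSO replicate 1 or 2, with 16 of the 35 among the 40. Of the 40 genes, 8 had counts that were multiples of a whole number in all labelled libraries, so fewer reads may lie behind them. In the unlabelled library of this experiment the responders reached at most 4.25% of their labelled mean.

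Among the 34 falls, the level left at 0.1 µM had a median of 41.7% of DMSO and the level left at 2.15 µM a median of 35.6%. The median log2 fold change against DMSO was -1.26 at 0.1 µM and -1.49 at 2.15 µM, 2 values that share their controls. Set directly against 0.1 µM, 24 of the 34 genes were lower at 2.15 µM and 10 were higher, with a median log2 fold change of -0.17, beside 5127 of 10083 genes lower and a median of -0.01 over all genes tested. Among the 505 genes in the top 5% by level, where most of the falls lay, 306 (60.6%) were lower, with a median of -0.09. The libraries of the doses did not overlap in 17 of the falls that were lower at 2.15 µM and in 5 that were higher, beside 19.0% and 20.1% of all genes tested and 160 and 89 of the 505. The median was between -0.32 and -0.09 in the 16 alternatives run. With the 1 fall that had 0 counts at 0.1 µM set at its floor, the median was -0.19.

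A further fall at 2.15 µM, by an unadjusted p under 0.05 between the doses, was seen in 7 of the 34 genes (20.6%), where 278 of all genes tested (2.76%) were lower at that level. These 7 genes lay from percentile 99.0 to 100 by level. At 0.1 µM they kept 39.2% to 65.4% of their DMSO level (median 52.1%) and at 2.15 µM 20.3% to 48.5% (median 34.6%). Their log2 fold changes between the doses ran from -0.95 to -0.37, with unadjusted p from 0.000194 to 0.0427, and none passed after adjustment over all genes (adjusted p 0.886 to 0.939 by edgeR). Small differences are easier to detect in genes of this level. Of the 505 genes in the top 5% by level, 52 (10.3%) were lower at 2.15 µM in the same way, beside 7 of the 23 falls in that range (30.4%). The falls were picked with the same estimates of spread, so these shares alone do not show a dose response. Whether dose raised them was not tested. ENSG00000137331 is one of the 7 and kept 52.1% of its DMSO level at 0.1 µM and 32.4% at 2.15 µM.

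In 23 of the 34 falls (67.6%) the doses did not differ at an unadjusted p under 0.05 and the 95% interval of their difference lay inside 2-fold. By 0.1 µM these genes had thus come within 2-fold of their 2.15 µM level. In many of them the libraries of the doses did not overlap, beside 19.0% of all genes tested that were lower at 2.15 µM and 20.1% that were higher. They kept 27.9% to 51.6% of DMSO at 0.1 µM (median 39.7%) and 25.1% to 55.7% at 2.15 µM (median 36.9%). Their differences between doses ran from -0.42 to 0.41 on the log2 scale, with interval bounds between -0.97 and 0.93. A further fall of less than 2-fold was therefore within the interval for each. Over all genes tested 20.8% had such intervals, and in the top 5% by level 80.2% (405 of 505). Of the 23 falls in that top range, 15 (65.2%) had them, so such intervals were no more frequent among the falls than among all genes of this level. Without 2.15 µM replicate 1 the count was 15 of the 34 falls. The remaining 2 falls without a difference had intervals that passed -1 (lower bounds -1.13 and -1.05) and were unresolved.

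ENSG00000095752 is an example of a fall with close levels at the 2 doses, which do not show whether its limit was reached. It had 1738 and 2467 CPM in DMSO, 617 and 556 CPM at 0.1 µM, and 503 and 553 CPM at 2.15 µM. Both doses stood far below DMSO and close to each other, although their libraries did not overlap. The 0.1 µM libraries averaged 27.9% of the DMSO level and the 2.15 µM libraries 25.1%. Its log2 fold change between the doses was -0.15 (SE 0.20, 95% interval -0.62 to 0.31, adjusted p = 0.988 by edgeR), and that of both doses against DMSO was -1.92 (SE 0.17, adjusted p = 0.00807 by edgeR).

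**Figure D3:**
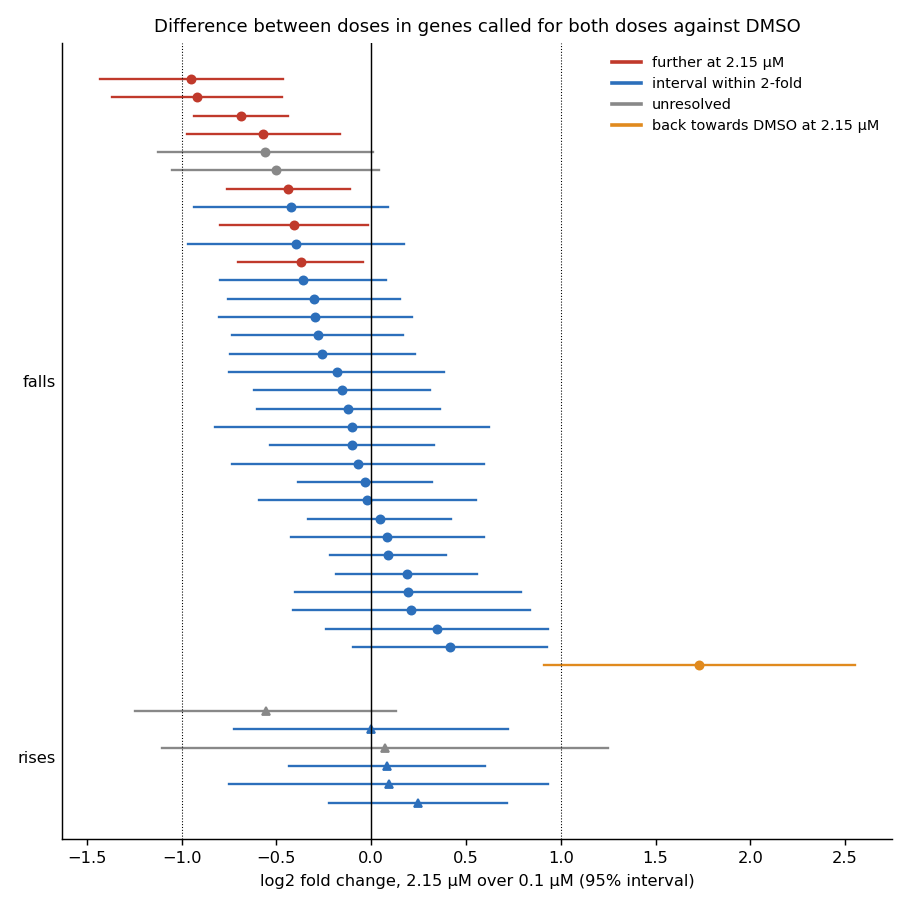
Log2 fold change of 2.15 over 0.1 µM with its 95% interval for 33 of the 34 called falls (circles, upper block) and the 6 called rises (triangles, lower block), each block ordered by the difference; the fall with 0 counts at 0.1 µM is left out. Dotted lines mark a 2-fold difference: 7 falls have intervals below 0 (red), 23 falls and 4 rises have intervals that include 0 and lie inside the dotted lines (blue), 2 falls and 2 rises are unresolved (grey), and 1 fall lies above 0 (orange).

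**Figure D4:**
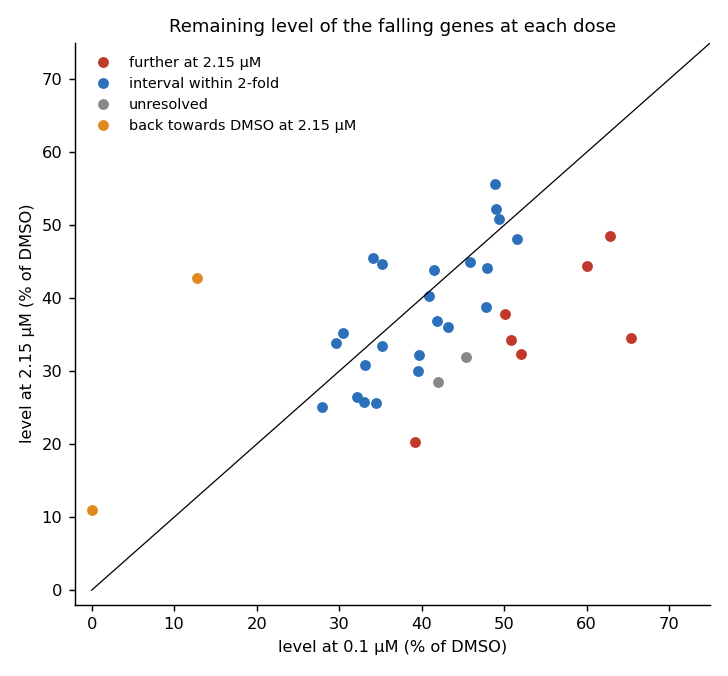
Mean level at 2.15 µM against mean level at 0.1 µM, each as a percent of the DMSO mean, for the 34 called falls, with the line of equal levels. The 7 genes that were lower at 2.15 µM (red) lie below the line, and the 23 genes alike within 2-fold (blue) lie around it. The classes were set by the difference between these doses, so this placement follows from their definition. The 7 genes kept 39.2% to 65.4% of DMSO at 0.1 µM.

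In 2 of the 34 falls (5.88%) the level was nearer to DMSO at 2.15 µM than at 0.1 µM, by an unadjusted p under 0.05, beside 256 higher genes (2.54%) over all genes tested. One was at 12.8% of its DMSO level at 0.1 µM and at 42.8% at 2.15 µM, with a log2 fold change between the doses of 1.73 (SE 0.36, adjusted p = 0.886 by edgeR). The other had 108 counts in DMSO, 0 counts at 0.1 µM and 20 counts at 2.15 µM, with an adjusted p between the doses of 0.905 by edgeR. Its counts were all multiples of 4 and came to 27 in DMSO, 0 at 0.1 µM and 5 at 2.15 µM when divided by it. On the divided counts it was at least 7.53-fold lower at 0.1 µM than in DMSO, with a floor of 3 over the group for counting error only, and no bound could be set on the difference between the doses. These genes were at percentiles 67.9 and 25.3 by level, below all of the other falls, the lowest of which was at 84.9.

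With the replicate number as a block, 0 genes were called higher than DMSO by edgeR, against 535 at an unadjusted p under 0.05. The calls of the 6 rises were also lost when any library other than DMSO replicate 2 was left out. Whether these 6 genes were called without DMSO replicate 2 was not checked. DESeq2 called 86 higher genes. None of the 6 rises was further up at 2.15 µM by an unadjusted p under 0.05 (0 of 6, beside 2.54% of all genes tested). Their log2 fold changes between the doses ran from -0.56 to 0.25 with a median of 0.08, and 4 of the 6 had intervals inside 2-fold. That count was 1 without 0.1 µM replicate 1 and 2 without 0.1 µM replicate 2, 2.15 µM replicate 1 or 2.15 µM replicate 2. ENSG00000118785 had 60.1 and 34.8 CPM in DMSO, 292 and 254 CPM at 0.1 µM, and 162 and 209 CPM at 2.15 µM. Its 0.1 µM libraries were the highest and did not overlap with those at 2.15 µM. The log2 fold change between the doses was -0.56 (SE 0.30, 95% interval -1.25 to 0.13, adjusted p = 0.952 by edgeR), and that of both doses against DMSO was 2.25 (SE 0.31, adjusted p = 0.0323 by edgeR).

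ENSG00000189042 had 0 and 0.966 CPM in DMSO (1 count), 67.1 and 33.9 CPM at 0.1 µM, and 39.0 and 67.9 CPM at 2.15 µM. The libraries of the 2 doses overlapped, and all 4 stood far above DMSO. The scaled ratio to DMSO was 100.4 at 0.1 µM (95% counting interval 17.5 to 4013) and 100.1 at 2.15 µM (17.7 to 3976). Both doses against DMSO passed with an adjusted p of 0.0323 by edgeR. Between the doses its log2 fold change was 0.07 (SE 0.51, 95% interval -1.11 to 1.25, adjusted p = 0.999 by edgeR), so a change of 2-fold in either direction was within the interval. The sign of this small difference turned in 3 alternatives.

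As a share of all counts in a library, the 34 falls held 7.48% and 7.70% in DMSO, 4.09% and 3.84% at 0.1 µM, and 3.15% and 3.20% at 2.15 µM. The 3 groups did not overlap, and most of the step was between DMSO and 0.1 µM. ENSG00000137331 made up much of the step between the doses, since it held 2.67% and 2.96% in DMSO, 1.69% and 1.47% at 0.1 µM, and 0.948% and 1.08% at 2.15 µM. Without it, the other falls held 4.81% and 4.74% in DMSO, 2.40% and 2.37% at 0.1 µM, and 2.20% and 2.12% at 2.15 µM. The 6 rises held 0.0563% and 0.0691% in DMSO, 0.204% and 0.176% at 0.1 µM, and 0.208% and 0.212% at 2.15 µM. These sums describe genes chosen for their difference from DMSO, and with 2 libraries a group an exact permutation test between the doses cannot go below p = 0.333.

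The same reading was made over the wider sets of genes that differed from DMSO at an unadjusted p under 0.05. Of 755 lower genes (7.49% of those tested), 59 (7.81%) were lower still at 2.15 µM, 44 (5.83%) were higher at 2.15 than at 0.1 µM, 291 (38.5%) were alike within 2-fold and 361 (47.8%) were unresolved. Of 624 higher genes (6.19% of those tested), 12 (1.92%) were higher still at 2.15 µM, 18 (2.88%) were lower at 2.15 than at 0.1 µM, 166 (26.6%) were alike within 2-fold and 428 (68.6%) were unresolved. Over all genes tested 2.76% were lower and 2.54% higher at 2.15 µM. The shares among the lower genes were above these in both directions. Among the higher genes the share higher still was below its counterpart, and the share lower at 2.15 µM was slightly above it. Total count scaling turned the balance against DMSO, with 505 lower and 903 higher genes. Leaving out DMSO replicate 1 gave 617 lower and 674 higher, and leaving out DMSO replicate 2 gave 899 and 1056. The counts were 533 and 347 without 2.15 µM replicate 1, 496 and 351 without 2.15 µM replicate 2, 812 and 586 without 0.1 µM replicate 1, and 860 and 577 without 0.1 µM replicate 2. In the reported fit the higher genes lay at a median percentile of 52.4 by level and the lower ones at 78.0, so the intervals of the higher genes were wider.

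Genes that differed between the doses at an unadjusted p under 0.05 were also sorted by where DMSO stood, as a description only. Of the 278 genes lower at 2.15 µM, 81 (29.1%) had their 0.1 µM mean between DMSO and 2.15 µM, as in a graded fall, 43 (15.5%) had their 2.15 µM mean between DMSO and 0.1 µM, and 154 (55.4%) had DMSO between the doses. Of the 256 genes higher at 2.15 µM, 25 (9.77%) had 0.1 µM in the middle, 63 (24.6%) had 2.15 µM in the middle and 168 (65.6%) had DMSO in the middle. Among all genes by direction alone, 35.8% of lower and 36.8% of higher genes had 0.1 µM in the middle, and 40.1% and 36.2% had 2.15 µM there. DMSO was in the middle in 24.1% of lower and 27.0% of higher genes. Past the threshold, DMSO in the middle was thus the most frequent order in both directions. The share with 0.1 µM in the middle was below that over all genes in both directions. It was larger than the share with 2.15 µM in the middle for lower genes and smaller for higher ones. Genes chosen for a wide gap between the doses leave more room for DMSO inside it. That choice alone can raise the share with DMSO in the middle and lower the share with 0.1 µM there. The contrast with all genes therefore does not show whether the higher dose went on from the lower one. The difference between the orders was not tested, since the 0.1 and 2.15 µM libraries also chose the genes.

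These orders moved with single libraries and with scaling. Under total count scaling the higher genes had 46 with 0.1 µM and 53 with 2.15 µM in the middle, and the lower genes had 57 and 43. For the higher genes the counts were 9 and 23 without 2.15 µM replicate 1, 10 and 23 without 2.15 µM replicate 2, 11 and 108 without 0.1 µM replicate 1, 17 and 161 without 0.1 µM replicate 2, 68 and 91 without DMSO replicate 1, and 73 and 98 without DMSO replicate 2. For the lower genes they were 53 and 8, 41 and 12, 36 and 33, 59 and 49, 95 and 104, and 124 and 97 without the same libraries in turn. The larger of these counts thus changed side for the lower genes without DMSO replicate 1. Thinning every library to 789214 counts, the smallest total, left 32 and 55 for the higher genes and 84 and 40 for the lower ones.

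**Figure D5:**
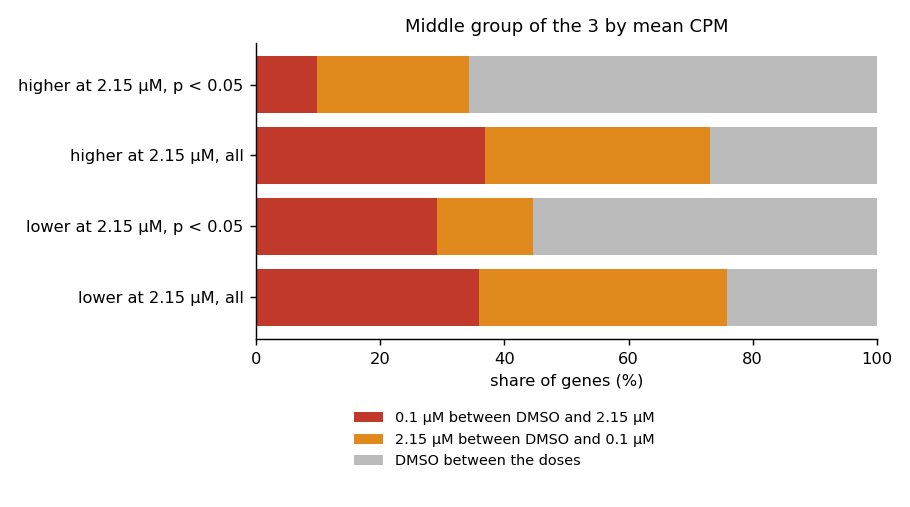
Share of genes (%) by which of the 3 groups had the middle mean CPM, for genes higher or lower at 2.15 than at 0.1 µM, either at an unadjusted p under 0.05 or over all genes tested. Among genes past that p, 29.1% of the lower ones and 9.77% of the higher ones had 0.1 µM in the middle (red). In 15.5% and 24.6% of them 2.15 µM was in the middle (orange), and in 55.4% and 65.6% DMSO was (grey).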

How the data were processed

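Each value is a raw count of reads given to new transcripts of a gene, as the authors deposited it. Per the series design text the reads went through SLAM DUNK, and GRCh38 is the build named in the submitters' processing notes. Its version and annotation, and how conversions and multiply matching reads were treated, are not stated in the labels or headers. Columns were mapped to samples by their names.

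The 6 labelled libraries of the VT107 experiment (2 per group, 789214 to 1778876 counts) were fitted together with edgeR 4.0.16 in R 4.3.3, using filterByExpr (minimum count 10), TMM scaling and the two-sided quasi-likelihood F-test without covariates, with Benjamini-Hochberg adjustment over all 10083 genes tested and a threshold of 0.05. The 95% intervals use the standard error of that test. The fit was also run on counts simulated with its own estimates of spread. Such counts cannot check those estimates, and the outcome is not given here.

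A responder was a gene called for the mean of both doses against DMSO. Its doses were read as further or back where they differed at an unadjusted p under 0.05, as alike where they did not and the interval lay within log2 -1 to 1, and otherwise as unresolved. Genes given by ID had the smallest p in each direction, with a mean of at least 20 CPM and, between doses, libraries that did not overlap. The rule had asked for 8 genes a direction with a symbol and was reduced to 2, since 0 IDs matched one, and the 27 gene lists and promoter motifs were not used. The comparison, lists and rules were chosen with earlier results of these data known.

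Over the 15 labelled libraries of the series, 1456 of 9757 genes examined (14.9%) had counts with a common divisor above 1. The unlabelled library held 10702 counts, 0.949% of the mean labelled total. Alternatives were other scalings, DESeq2 1.42.0, no filter, other sets of libraries, a replicate block, divided counts and, added after the depths were seen, thinned libraries.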

Additional observations from a re-analysis of the deposited data

How the results depend on the processing

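Between the doses, edgeR's count of 0 calls was 0 in 14 of 16 alternatives, and 7 with DESeq2 and 4 without the filter. For both doses against DMSO, 40 calls became 197 with all 15 labelled libraries, 297 with DESeq2, 301 without the filter and 23 with total count scaling, and 1 to 35 when 1 library was left out. At 2.15 µM against DMSO, 11 became 155, 245, 199 and 5 in the same order, 1 with the groups of the contrast alone, 21 with thinned libraries, and 1 to 26 when 1 library was left out. At 0.1 µM against DMSO, 0 became 72 with all 15 labelled libraries, 183 with DESeq2, 171 without the filter and 8 with thinned libraries.

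With the replicate number as a block, 12 genes were called for both doses, 5 for 2.15 µM against DMSO, and 0 between the doses, where 221 genes were higher and 227 lower without adjustment at 0.05. Deviations of same-numbered libraries correlated at -0.03 across genes between the doses. The values were -0.062 between 2.15 µM and DMSO and -0.008 between 0.1 µM and DMSO. The labels do not say whether a number marks a shared culture, and whether same-numbered libraries shared a culture was not tested.

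Only the sizes of the dose classes were counted in the alternatives, not whether the same genes kept their class. For the 34 falls chosen in the reported fit, 5 to 8 were further down at 2.15 µM in the alternatives other than leaving out 1 library. Those alike within 2-fold numbered 15 to 23 when 1 library was left out and 21 to 25 otherwise. The difference between doses of ENSG00000189042 was -0.063 with thinned libraries, -0.33 without 0.1 µM replicate 2 and -0.37 without 2.15 µM replicate 2, and ran to 0.66 when 1 library was left out. Rises alike numbered 2 with all 15 labelled libraries and 1 to 4 when 1 library was left out. The median of all genes against DMSO moved to 0.18 at 2.15 µM and 0.12 at 0.1 µM with total count scaling, but to 0.04 between the doses.

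Few intervals were within 2-fold outside the highest of the 4 bins by level. Replicate spread was above counting noise in every group (chi-square per degree of freedom 5.16 to 8.76), and thinning to the smallest total raised the calls of both doses against DMSO to 55, so depth and replicate spread were not separated as limits.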
